A study of Mus musculus with 3 samples.

Results

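The genes described here are those of the mitochondrial respiratory chain and ATP synthase in mouse mammary tumours. They were chosen by symbol alone: the Ndufa, Ndufb, Ndufc, Ndufs and Ndufv genes, the Sdh genes, the Uqcr genes, the Cox4i, Cox5, Cox6, Cox7 and Cox8 genes, the Atp5 genes, and the mt-Nd, mt-Co, mt-Atp and mt-Cytb genes. Of the 55357 gene rows in the count matrices, 117 met this rule, 104 encoded in the nucleus and 13 in mitochondrial DNA, after 14 rows whose names mark pseudogenes (-ps) were left out. In both libraries 99 of the 104 nuclear genes and 13 of the 13 mitochondrial genes had at least 1 UMI (unique molecular identifier, which counts captured transcripts).

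Single cells were profiled by droplet 3′ RNA sequencing (10x v3) from tumours of 4T1, a transplantable mouse mammary carcinoma line, grown in female mice of 8 to 10 weeks that were kept for 8 days. The cancer cells carried either sgVC, labelled as wild type, or sgCPT1A, labelled as a Cpt1a knockdown. Cpt1a encodes the enzyme that starts the import of long-chain fatty acids into mitochondria. Each arm has 1 library in the files, so every comparison below sets 1 library against another: no p-value can be given, and intervals are 95% intervals for counting error only. A further sample, labelled as additional sgCPT1A, has no file of its own in those used here, and whether its cells are pooled in the sgCPT1A matrix is not given in the sources used here. The guide belongs to the injected line, so the host cells, which make up every class compared below, are unedited as labelled. How many tumours went into a library is not given.

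The respiratory chain passes electrons from NADH (complex I) and succinate (complex II) through complex III to oxygen at complex IV, and ATP synthase (complex V) uses the proton gradient that this builds. Complex II is encoded wholly in the nucleus. The other 4 complexes join nuclear subunits, made in the cytosol, with a few core subunits that mitochondria make from their own DNA. Neutrophils are known for few mitochondria and a reliance on glycolysis, while most other cells of a tumour respire.

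By complex, the nuclear genes comprised 49 for complex I, 8 for complex II, 8 for complex III, 21 for complex IV and 18 for complex V. The mitochondrial genes comprised 7 for complex I, 1 for complex III, 3 for complex IV and 2 for complex V. Complex I holds 7 core and 30 accessory subunits, 8 assembly factors and 4 near copies of a subunit.

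Mitochondrial genes have near-identical copies in the nuclear genome, and these decide which mt- counts can be taken at face value, so 2 pairs are shown. The copies lie side by side on chromosome 1 and the first pair is letter for letter the same. The second differs at the position in capitals. Letters are from the GENCODE M21 transcripts (build GRCm38), 5′ to 3′ along the gene: mt-Co3 at chrM:9330-9389 (plus strand), Gm28437 at chr1:24613189-24613248 (minus), mt-Nd3 at chrM:9459-9518 (plus) and Gm28438 at chr1:24613060-24613119 (minus).
mt-Co3: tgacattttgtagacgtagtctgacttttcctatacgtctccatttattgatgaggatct
Gm28437: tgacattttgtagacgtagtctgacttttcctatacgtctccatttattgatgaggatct
mt-Nd3: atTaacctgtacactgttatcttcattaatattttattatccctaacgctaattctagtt
Gm28438: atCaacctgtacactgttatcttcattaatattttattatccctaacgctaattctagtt

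Over the 345 aligned bases, mt-Nd3 and Gm28438 differed by T3C alone, counted from the first base of mt-Nd3. Over all barcodes mt-Nd3 held 135 UMIs in sgVC and 49 in sgCPT1A, while its copy Gm28438 held 9558 and 3400. Counts of mt-Nd3 therefore cannot be read as its level. Of all 90-base windows of each gene, the share also found in another annotated gene was 99.9% for mt-Co3, 99.5% for mt-Co2, 99.5% for mt-Atp6, 98.6% for mt-Nd4l, 97.7% for mt-Nd3, 61.1% for mt-Nd4 and 33.4% for mt-Co1. It was 4.2% for mt-Nd2, 0.3% for mt-Nd5 and 0 for mt-Nd1, mt-Nd6, mt-Cytb and mt-Atp8. Reads of a 3′ library come from the end of a transcript, so the last 300 windows matter most. Among these the share was 100% for mt-Co1, 99.7% for mt-Co3, 99% for mt-Co2 and mt-Atp6, 13.3% for mt-Nd2 and 0 for mt-Nd4, mt-Nd1, mt-Nd5, mt-Nd6, mt-Cytb and mt-Atp8. Counting commonly drops a read that fits both a gene and its copy, so levels of mt-Co1, mt-Co2, mt-Co3, mt-Atp6, mt-Nd3 and mt-Nd4l are uncertain. Among nuclear genes the same holds for Atp5g2, with 100% of windows shared, and in part for Atp5l (62.2%), Atp5g1 (58.2%), Atp5h (48.4%) and Cox7c (47.9%), which also share windows at their ends.

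The sgVC library held 9890 barcodes with a median of 10809 UMIs and the sgCPT1A library 7198 with a median of 2786, and 18 barcodes occurred in both. More than 20% mt- UMIs were found in 2.80% and 6.29% of barcodes. After filtering, 9319 and 6743 cells remained, and clusters were named from marker genes, with the respiratory chain genes left out of the clustering. Of the named classes, 6 had at least 50 cells in each library, here with sgVC first: neutrophil-like (1797 and 5124 cells), monocyte/macrophage-like (1393 and 296), T-like (855 and 552), fibroblast-like (400 and 514), dendritic-like (185 and 59) and pericyte/smooth muscle-like (51 and 73). Tumour-like cells numbered 4399 and 37. Of the 37, 30 lay in cluster 20, led by Krt19, Wfdc18 and Prlr, which held 13 cells of sgVC, while the tumour-like clusters 0, 6 and 8 held 2175, 1133 and 1078 cells of sgVC and 4, 2 and 1 of sgCPT1A. The guide's own target cells could therefore not be compared, and levels of those 37 cells are not compared. Cpt1a was higher in sgCPT1A in each of the 6 host classes, for example in T-like cells, at 20.0 CPM in sgVC and 30.9 in sgCPT1A (UMIs of the gene scaled to a total of 1000000 UMIs in the class). In monocyte/macrophage-like cells it was at 22.6 and 43.8 CPM. It stood at 17.4 CPM in the tumour-like cells of sgVC. A guide can end a protein without lowering its transcript, so this 3′ count does not check the label. Between the libraries, Rn18s-rs5, a ribosomal RNA gene, was higher in sgCPT1A in each of the 6 classes (17303 and 44479 CPM in T-like cells), as was Malat1, a nuclear-retained RNA (8729 and 15291 CPM in T-like cells).

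Summed over the 104 nuclear genes, the level separated the neutrophil-like class from the rest in both libraries. In sgVC it was 22742 CPM in tumour-like cells, 22428 in pericyte-like, 19566 in dendritic-like, 19467 in T-like, 19335 in monocyte/macrophage-like, 16738 in NK-like and 15011 in fibroblast-like cells, against 3656 in neutrophil-like cells. The intervals of tumour-like and pericyte-like cells overlapped, as did those of dendritic-like and T-like cells and of T-like and monocyte/macrophage-like cells, so those neighbours have no set order. In sgCPT1A the order of the 6 classes was pericyte-like (21659 CPM), dendritic-like (19229), T-like (17220), monocyte/macrophage-like (16914), fibroblast-like (13588) and neutrophil-like (2462). Only T-like and monocyte/macrophage-like intervals overlapped there.

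The 13 mitochondrial genes gave another order. In sgVC tumour-like cells (7718 CPM) were again highest, before pericyte-like (7134), monocyte/macrophage-like (5500), T-like (4849), fibroblast-like (4483), dendritic-like (3855), NK-like (3136) and neutrophil-like cells (1969). In sgCPT1A pericyte-like (11846 CPM) and fibroblast-like cells (7643) led, followed by T-like (6676), monocyte/macrophage-like (6415), dendritic-like (5592) and neutrophil-like cells (861). Dendritic-like cells therefore stood high for nuclear and low for mitochondrial genes in both libraries, and fibroblast-like cells of sgCPT1A the reverse. For each nuclear UMI there were 0.197 mitochondrial UMIs in dendritic-like cells of sgVC and 0.291 in those of sgCPT1A. The values were 0.299 and 0.563 in fibroblast-like, 0.249 and 0.388 in T-like, 0.284 and 0.379 in monocyte/macrophage-like, and 0.318 and 0.547 in pericyte-like cells. Neutrophil-like cells went the other way, from 0.538 in sgVC to 0.350 in sgCPT1A.

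**Figure D1:**
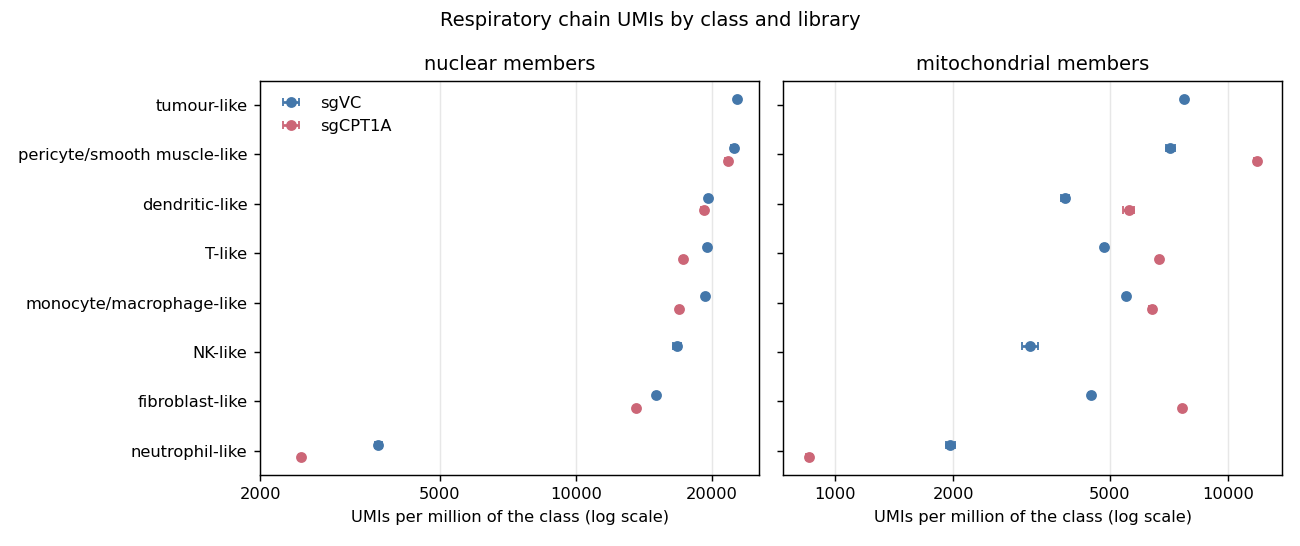
Summed level of the nuclear (left) and mitochondrial (right) respiratory chain genes in each cell class, in CPM on a log axis, for the sgVC and sgCPT1A libraries, with exact Poisson intervals. Neutrophil-like cells sit far below every other class for nuclear genes (3656 and 2462 CPM), and the mitochondrial level is higher in sgCPT1A in every compared class except that one.

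The mitochondrial genes were higher in sgCPT1A in 5 classes and lower in neutrophil-like cells. The log2 ratio of sgCPT1A over sgVC was 0.46 (0.43 to 0.49) in T-like, 0.54 (0.48 to 0.59) in dendritic-like, 0.77 (0.75 to 0.79) in fibroblast-like, 0.22 (0.19 to 0.25) in monocyte/macrophage-like and 0.73 (0.69 to 0.78) in pericyte-like cells, and -1.19 (-1.24 to -1.15) in neutrophil-like cells. The 2 mitochondrial rRNAs, mt-Rnr1 and mt-Rnr2, summed, gave 0.85, 1.12, 1.14, 0.97 and 1.27 in the same 5 classes and -0.25 in neutrophil-like cells. Relative to the median gene, the neutrophil-like value was 0.04 for these rRNAs and -0.90 for the mitochondrial genes. Among classes of at least 50 cells, the summed rRNAs were highest in neutrophil-like cells in sgVC (20867 CPM). In sgCPT1A they were lowest there (17497 CPM). The filter on mt- UMIs caps the values of these rRNAs and of the mitochondrial genes. Without it the ratio of the mitochondrial genes in monocyte/macrophage-like cells was 0.95, and with a cap of 10% it was 0.023. By depth, 2 ranges ran the other way, with sgVC first. These were monocyte/macrophage-like cells of 10000 to 20000 UMIs (4916 and 4648 CPM) and T-like cells of 500 to 1000 UMIs (12170 and 8670). Levels were higher in sgCPT1A in the other depth ranges compared in T-like, dendritic-like, fibroblast-like and monocyte/macrophage-like cells. The share of barcodes over 20% mt- UMIs, 2.80% in sgVC and 6.29% in sgCPT1A, was higher on the same side. Malat1 was too, at 10525 and 14865 CPM in dendritic-like, 6286 and 10514 in fibroblast-like, 8426 and 14285 in monocyte/macrophage-like, 5129 and 15256 in pericyte-like and 22151 and 25089 in neutrophil-like cells. The part of either in these ratios was not tested.

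Within complex I, mt-Nd1 and mt-Nd2, core subunits of the membrane arm, share few windows or none. Counts of mt-Nd2 were 391 CPM in T-like cells of sgVC and 776 in those of sgCPT1A, 272 and 563 in dendritic-like, 245 and 656 in fibroblast-like, 403 and 632 in monocyte/macrophage-like, 403 and 1131 in pericyte-like, and 156 and 77.1 in neutrophil-like cells. Every class but the neutrophil-like was higher in sgCPT1A, with log2 ratios from 0.65 to 1.49, against -1.01 in neutrophil-like cells. The ratios of mt-Nd1 had the same signs but were smaller, at 0.58, 0.71, 1.00, 0.39 and 0.88 in T-like, dendritic-like, fibroblast-like, monocyte/macrophage-like and pericyte-like cells, and -0.96 in neutrophil-like cells. Those of mt-Nd5, a proton-pumping subunit, were 0.51, 0.99, 0.98, 0.46 and 1.02, and -1.11 in neutrophil-like cells. For mt-Nd4, which shares no window at its end, the range over the 5 classes was 0.03 to 0.59, with 0.20 in T-like and 0.03 in monocyte/macrophage-like cells. The light-strand gene mt-Nd6 was rare, with 7.16 CPM in fibroblast-like cells of sgVC and 10.9 in those of sgCPT1A, and mt-Nd4l and mt-Nd3 stayed below 5 CPM in all 6 classes of both libraries.

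The single mitochondrial gene of complex III, mt-Cytb, had the highest count of the 13. It stood at 1866 CPM in T-like cells of sgVC and 2120 in those of sgCPT1A, 1625 and 1706 in dendritic-like, 2231 and 3172 in fibroblast-like, 2187 and 1949 in monocyte/macrophage-like, 3721 and 4896 in pericyte-like, and 730 and 265 in neutrophil-like cells. Its log2 ratio of -0.17 (-0.21 to -0.12) in monocyte/macrophage-like cells ran against the 0.65 of mt-Nd2 there. As a share of the UMIs of the 13 genes, mt-Cytb was lower in sgCPT1A in each of the 6 classes. The share was 38.5% in sgVC and 31.7% in sgCPT1A among T-like cells, 42.2% and 30.5% among dendritic-like, 49.8% and 41.5% among fibroblast-like, 39.8% and 30.4% among monocyte/macrophage-like, 37.1% and 30.7% among neutrophil-like, and 52.2% and 41.3% among pericyte-like cells. The share of mt-Nd4 was also lower in 5 classes, at 14.1% and 11.7% among T-like, 14.3% and 12.7% among dendritic-like, 15.4% and 13.6% among fibroblast-like, 15.9% and 13.9% among monocyte/macrophage-like and 14.6% and 13.2% among pericyte-like cells, and was 13.9% and 14.4% among neutrophil-like cells. In T-like, dendritic-like, fibroblast-like and pericyte-like cells the level of mt-Cytb was higher and its share lower, that is, the other mitochondrial genes together were higher by more.

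In complex IV, mt-Co1, the catalytic subunit, stood at 748 and 1036 CPM in T-like cells (sgVC, then sgCPT1A) and at 384 and 718 in fibroblast-like cells, with log2 ratios of 0.47, 0.80, 0.90, 0.56 and 1.00 in T-like, dendritic-like, fibroblast-like, monocyte/macrophage-like and pericyte-like cells and -1.22 in neutrophil-like cells. The copper-binding subunit mt-Co2 had larger ratios, 1.10 to 1.76 in the same 5 classes, and it was the single mitochondrial gene with at least 20 UMIs that lay above 0 in neutrophil-like cells (15.8 and 18.5 CPM, 0.23). Its sequence is almost wholly shared with a copy, Gm28661. The level of mt-Co3, the structural subunit shown above, ran from 5.40 to 71.8 CPM. In complex V, mt-Atp6, the proton channel, had ratios of 0.69 to 1.83 in the 5 classes and -0.62 in neutrophil-like cells, and mt-Atp8, which has no shared window, 0.91 to 2.38 and -1.32.

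Genes with and without copies gave the same signs. Summed over the 6 genes with under 5% of windows shared, the ratios were 0.43, 0.43, 0.73, 0.14 and 0.65 in T-like, dendritic-like, fibroblast-like, monocyte/macrophage-like and pericyte-like cells and -1.26 in neutrophil-like cells. Over the 6 genes with no shared window among the last 300, which take in mt-Nd4 in place of mt-Nd2, they were 0.30, 0.34, 0.64, 0.06 and 0.56, and -1.26. Over the 7 genes with 5% or more of all windows shared they were 0.53, 0.73, 0.87, 0.37 and 0.94, and -1.09. The copy Gm28438 itself gave 1.26, 1.12, 1.85, 0.83 and 1.85, and 0.01 in neutrophil-like cells, the class in which mt-Nd1 and mt-Nd2 gave -0.96 and -1.01.

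**Figure D2:**
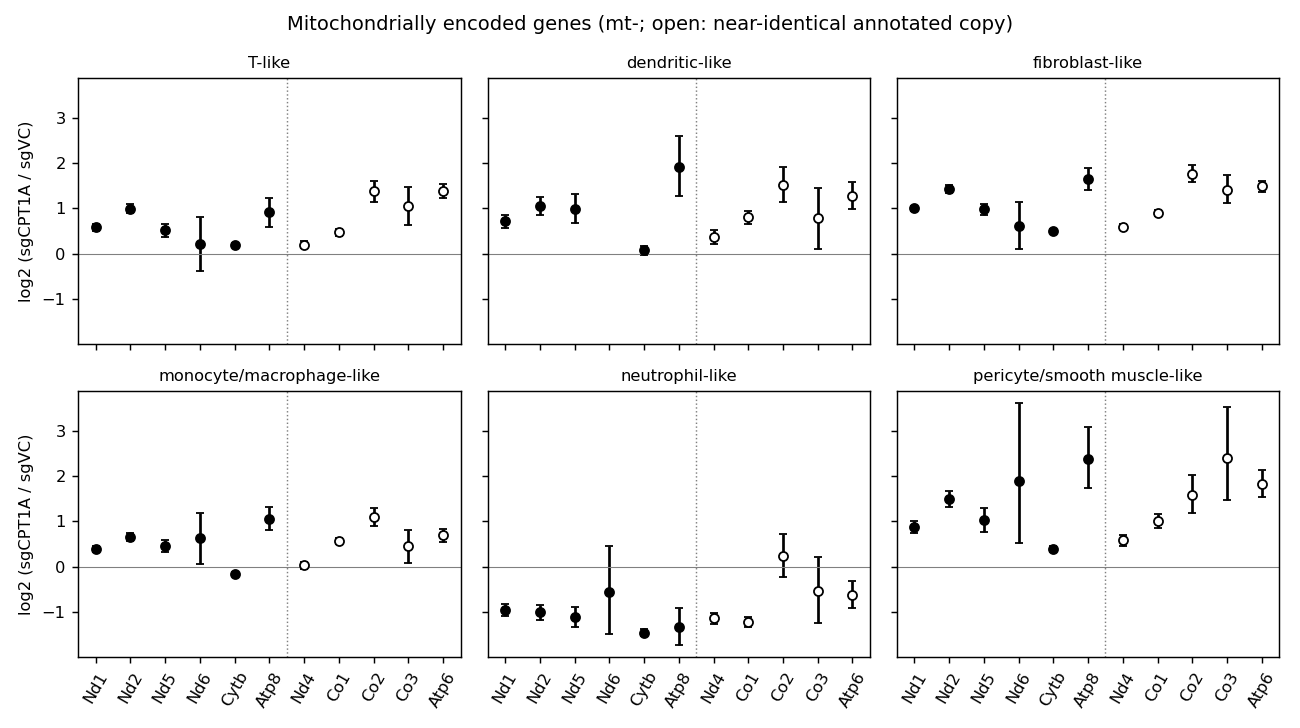
Log2 ratio of sgCPT1A over sgVC for each mitochondrial gene with at least 20 UMIs in the 6 compared classes, with exact intervals for counting error, where open points mark genes that share 5% or more of their windows with an annotated copy. In neutrophil-like cells the points of all but mt-Co2 lie below 0, and in the other classes mt-Cytb sits below mt-Nd2 each time.

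The nuclear genes differed less. Their summed log2 ratio was -0.18 (-0.19 to -0.16) in T-like, -0.03 (-0.05 to 0.00) in dendritic-like, -0.14 (-0.16 to -0.13) in fibroblast-like, -0.19 (-0.21 to -0.18) in monocyte/macrophage-like, -0.05 (-0.08 to -0.02) in pericyte-like and -0.57 (-0.60 to -0.54) in neutrophil-like cells. The small pericyte-like value became 0.011 when an estimate of free RNA was subtracted. In dendritic-like cells none was subtracted, as the estimate reached 60.5% in sgCPT1A. The median over all genes with at least 20 UMIs in the class was -0.04, -0.02, -0.02, -0.11, 0.05 and -0.30 in the same order. Nuclear and mitochondrial sums thus lay on opposite sides of 0, with both intervals clear of it, in T-like, fibroblast-like and monocyte/macrophage-like cells, and both lay below 0 in neutrophil-like cells. The T-like clusters differed for nuclear genes. Cluster 9 was at 18671 CPM in sgVC and 16115 in sgCPT1A, and cluster 14 at 22501 and 20551 (90 and 31 cells). Cluster 11, marked by Cd8a, was at 19762 and 19995, with overlapping intervals. In dendritic-like and pericyte-like cells the sign of the nuclear sum is not settled.

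Gene by gene, counted among those with at least 20 UMIs in the class, members at least 1.5-fold lower in sgCPT1A made up 47 of 84 nuclear genes in neutrophil-like cells, where 36% of all genes were. In monocyte/macrophage-like cells they made up 25 of 94, against 25.3% of all genes, and in T-like cells 13 of 90, against 14%. For dendritic-like cells the count was 9 of 87 (18.5% of all genes), for fibroblast-like cells 10 of 95 (13.5%), and for pericyte-like cells 7 of 92 (18.6%). Except in neutrophil-like cells these shares lie near or under the background when all cells of a class are taken. Averaged within clusters, the neutrophil-like count lower was 37 of 84, against 30.9% of all genes. With an estimate of free RNA subtracted it was 62 of 84, against 41.5% of all genes. Members at least 1.5-fold higher numbered 2 in T-like cells (13.5% of all genes), 8 in dendritic-like (15.9%), 6 in fibroblast-like (16%), 7 in monocyte/macrophage-like (15.1%), 4 in neutrophil-like (17.4%) and 13 in pericyte-like cells (22.9%). In every class the share higher was under that of all genes, and in dendritic-like, fibroblast-like and pericyte-like cells so was the share lower. The background takes in every gene with at least 20 UMIs and was not matched to the members by count. Genes of few UMIs pass 1.5-fold more easily by counting error, so a share under the background is not read as a result about the members. The counts lower varied with the cells and the scale taken, from 8 to 40 in T-like, from 5 to 31 in fibroblast-like and up to 45 in monocyte/macrophage-like cells. The highest came with cells of 1000 to 5000 UMIs alone, a choice made after the data were seen. There 46.5% of the members measured were lower in T-like cells against 23.1% of all genes, 57.4% against 34.9% in fibroblast-like (45 and 31 cells), and 54.2% against 34.2% in monocyte/macrophage-like cells. With doublet calls kept, the 30 lower in T-like cells (33% of members) stood beside 30.3% of all genes. The median nuclear gene stood at -0.22 in T-like, -0.08 in dendritic-like, -0.20 in fibroblast-like, -0.33 in monocyte/macrophage-like, -0.81 in neutrophil-like and -0.01 in pericyte-like cells.

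**Figure D3:**
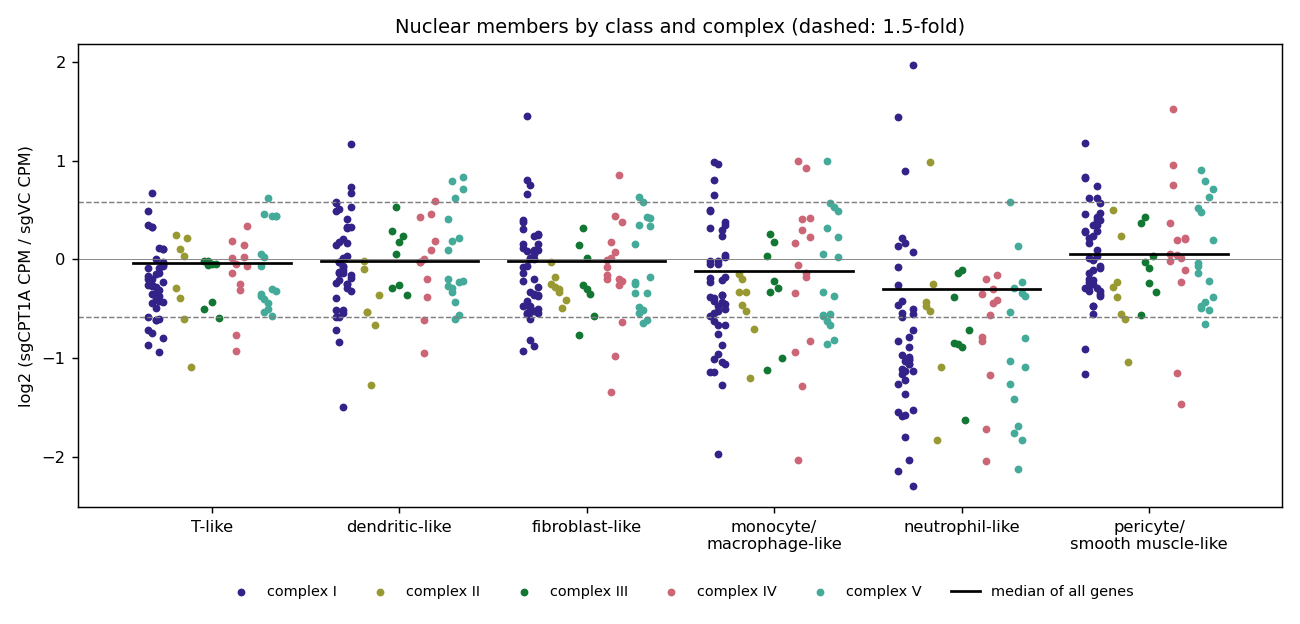
Log2 ratio of sgCPT1A over sgVC for each nuclear gene of the chain with at least 20 UMIs in the class, by complex (colours), in the 6 compared classes, where black lines give the median of all genes and dashed lines 1.5-fold. Most points in neutrophil-like cells lie below 0 (median -0.81), and those of pericyte-like cells spread around it (median -0.01).

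Some genes lay on 1 side of 0 in every class. Of the 83 nuclear genes measured in all 6 classes, 34 lay below 0 in each (41%) and 6 above 0 in each (7.23%). Of the 5768 genes of any kind measured in all 6, 1226 lay below 0 in each (21.3%) and 397 above 0 in each (6.88%). These genes were not matched to the members by count either. Cox5a, Ndufa4 and Ndufa8 were at least 1.5-fold lower in all 6. How many of all genes were so was not counted, so these are given as examples only. The members above 0 throughout were Atp5k, Atp5md, Ndufa2, Ndufa3, Ndufb1 and Ndufb4. The classes share their 2 libraries, so the recurrence of a gene across them is not independent evidence about it.

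In complex I the nuclear sum gave -0.25, 0.01, -0.14, -0.18, -0.05 and -0.62 in T-like, dendritic-like, fibroblast-like, monocyte/macrophage-like, pericyte-like and neutrophil-like cells. Ndufa8, an accessory subunit of the intermembrane-space face, was at 222 CPM in T-like cells of sgVC and 122 in those of sgCPT1A, 189 and 115 in dendritic-like, 224 and 118 in fibroblast-like, 244 and 111 in monocyte/macrophage-like, 431 and 193 in pericyte-like, and 29.4 and 6.64 in neutrophil-like cells. It was lower by every pair, with ratios from -0.72 to -2.15. Ndufb9, among the 2 genes of the complex with the highest counts, had 289 and 172 CPM in T-like cells and ratios from -0.32 in dendritic-like to -1.13 in neutrophil-like cells. Ndufc2, another accessory subunit, was among the lowest in T-like cells (197 and 103 CPM, -0.94) and in neutrophil-like cells (10.8 and 2.19 CPM, -2.30). Of the core subunits, Ndufv1, which binds NADH, ran from -0.36 in T-like to 0.58 in dendritic-like cells outside neutrophil-like cells, where it was at 6.09 and 3.06 CPM (-0.99). Ndufs1, which carries iron-sulfur clusters, ran from -0.58 in monocyte/macrophage-like to 0.10 in pericyte-like cells, and in neutrophil-like cells it was at 6.81 and 2.85 CPM (-1.26). These core subunits were chosen after their values were seen.

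At the other end of complex I, Ndufa3, a small accessory subunit, had 72.1 and 115 CPM in T-like, 80.6 and 115 in dendritic-like, 60.2 and 105 in fibroblast-like, 75.1 and 131 in monocyte/macrophage-like, 74.6 and 115 in pericyte-like and 20.8 and 24.2 in neutrophil-like cells. Its ratios were 0.51 to 0.80 outside neutrophil-like cells and 0.22 in them. Ndufa2 gave 0.31 to 0.57, and 0.13 in neutrophil-like cells. Ndufb4 reached 1.45 in fibroblast-like cells (20.0 and 54.6 CPM) and 1.17 in dendritic-like cells. It shares 34.1% of its windows with Ndufb4c, but none of its last 300. Ndufa1 was among the 3 highest in T-like cells (130 and 183 CPM, 0.49).

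Assembly factors, which build complexes and are not part of them, made up 12 measured genes in T-like, fibroblast-like and monocyte/macrophage-like cells, with medians of -0.20, -0.39 and -0.86. None of them lay 1.5-fold higher there, where 13.5%, 16% and 15.1% of all genes did. In T-like and fibroblast-like cells 3 and 2 of the 12 were 1.5-fold lower, where 14% and 13.5% of all genes were. In monocyte/macrophage-like cells 7 of the 12 were 1.5-fold lower, where 25.3% of all genes were. In dendritic-like cells 1 of 9 was higher and 4 lower (18.5% of all genes, median -0.53), in pericyte-like cells 1 of 11 was higher and 2 lower (18.6%, 0.02), and in neutrophil-like cells 3 of 8 were higher and 3 lower (36%, -0.39). All genes higher made up 15.9%, 22.9% and 17.4% in these 3 classes. Among monocyte/macrophage-like cells Ndufaf5 was the second lowest nuclear gene with at least 50 UMIs, at 9.12 and 2.33 CPM (-1.97). Among dendritic-like cells Ndufaf4 was at 24.7 and 13.8 CPM (-0.84). In neutrophil-like cells 3 assembly factors stood out the other way. Ndufaf6 was at 1.79 CPM in sgVC (5 UMIs) and 7.01 in sgCPT1A (96 UMIs), Ndufaf7 at 7.53 and 20.5, and Sdhaf1, which helps load iron-sulfur clusters into complex II, at 16.5 and 32.6. Their ratios of 1.97, 1.45 and 0.98 were the highest of all nuclear genes in that class, while each of the 3 was below 0 in T-like, fibroblast-like and monocyte/macrophage-like cells. In dendritic-like cells Ndufaf6 and Sdhaf1 were below 0, and Ndufaf7 had too few UMIs (7 and 1) to count as measured.

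For complex II, the enzyme shared with the tricarboxylic acid (TCA) cycle, the nuclear sum gave -0.26 in T-like, -0.43 (-0.63 to -0.24) in dendritic-like, -0.25 in fibroblast-like, -0.37 in monocyte/macrophage-like, -0.28 in pericyte-like and -0.24 in neutrophil-like cells. The sum takes in 4 core subunits and 4 assembly factors (Sdhaf1 to Sdhaf4), and the subunits alone were not summed. In neutrophil-like cells Sdhaf1 held 46 of its 316 UMIs in sgVC and 447 of 1318 in sgCPT1A. With the assembly factors in it, the point value of complex II was the lowest of the 5 complexes in every class but the neutrophil-like, where it was the highest. In T-like cells, though, its interval (-0.38 to -0.15) held the value of complex I. In neutrophil-like cells its interval (-0.41 to -0.05) held that of complex III (-0.33). The iron-sulfur subunit Sdhb had 117 and 96.0 CPM in T-like, 126 and 114 in monocyte/macrophage-like and 21.5 and 10.1 in neutrophil-like cells. The membrane anchor Sdhd had 90.3 and 59.4 CPM in T-like and 149 and 104 in monocyte/macrophage-like cells, and its ratios were -0.30 to -0.60 in all 6 classes. Sdha, the succinate-oxidising flavoprotein, had point values above 0 in T-like (46.5 and 55.2 CPM, 0.25) and pericyte-like cells (0.50), but both intervals held 0. Sdhaf4, the assembly factor that joins Sdha to Sdhb, was the lowest nuclear gene with at least 50 UMIs in T-like cells (33.7 and 15.9 CPM, -1.08), and Sdhaf2, which helps attach FAD to Sdha, the lowest such gene in dendritic-like cells (50 and 20.7 CPM, -1.27).

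Complex III, which passes electrons to cytochrome c, gave nuclear sums of -0.15, 0.06 (-0.03 to 0.15), -0.15, -0.16, -0.02 and -0.33 in T-like, dendritic-like, fibroblast-like, monocyte/macrophage-like, pericyte-like and neutrophil-like cells. Its hinge subunit Uqcrh stood at 804 and 775 CPM in T-like, 133 and 121 in neutrophil-like and 456 and 364 in monocyte/macrophage-like cells. Uqcrq stood at 231 and 225, 77.4 and 71.7, and 325 and 368 CPM in the same classes, and all its ratios lay between -0.11 and 0.18. The Rieske iron-sulfur subunit Uqcrfs1 was lower in all 6 classes, from -0.29 in dendritic-like to -1.12 in monocyte/macrophage-like cells (171 and 78.7 CPM). It is named after its values were seen.

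In complex IV, cytochrome c oxidase, the nuclear sum was -0.17, -0.08, -0.15, -0.22, -0.01 and -0.55 in the same order. Cox4i1 and Cox8a, the genes with the highest counts of the complex over the compared classes, had their lowest ratios in neutrophil-like cells (-0.79 and -0.35). The interval of Cox4i1 lay below 0 in 4 of the 6 classes. That of Cox8a lay below 0 in 3 and above 0 in 1. Cox4i1 was at 770 and 702 CPM in T-like, 846 and 666 in monocyte/macrophage-like and 148 and 85.7 in neutrophil-like cells. Cox8a was at 764 and 770, 770 and 699, and 419 and 329 CPM in these. Cox5a, a subunit of the matrix side, was at 827 CPM in T-like cells of sgVC and 487 in those of sgCPT1A, 846 and 440 in dendritic-like, 341 and 173 in fibroblast-like, 965 and 396 in monocyte/macrophage-like, 636 and 287 in pericyte-like, and 87.4 and 26.7 in neutrophil-like cells. Its ratios ran from -0.76 to -1.71. Its partner Cox5b gave -0.18 to -0.25 outside neutrophil-like cells and -0.57 in them. Ndufa4, first assigned to complex I and now counted with complex IV, was at 558 and 294 CPM in T-like, 572 and 373 in dendritic-like, 465 and 300 in fibroblast-like, 443 and 250 in monocyte/macrophage-like, 552 and 200 in pericyte-like and 55.9 and 13.6 in neutrophil-like cells. It had the lowest ratio of all nuclear genes in pericyte-like cells, -1.47.

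In ATP synthase the sums were -0.12, 0.00, -0.13, -0.17, -0.09 and -0.70. Atp5b, the catalytic beta subunit of F1, was at 488 and 338 CPM in T-like, 464 and 256 in monocyte/macrophage-like and 86.7 and 32.5 in neutrophil-like cells, and Atp5c1, the central stalk of F1, at 424 and 311, 329 and 224, and 48.0 and 11. Both were lower in all 6 classes, with ratios from -0.33 to -1.41 and from -0.43 to -2.12. Atp5k, subunit e of the membrane part, was at 125 and 173 CPM in T-like, 108 and 187 in dendritic-like, 89.9 and 140 in fibroblast-like, 130 and 258 in monocyte/macrophage-like, 130 and 244 in pericyte-like and 17.9 and 26.9 in neutrophil-like cells, higher each time by 0.46 to 0.99. Atp5l, subunit g, gave 0.58 to 0.80 outside neutrophil-like cells and -0.29 in them, with 62.2% of its windows shared. Atp5mpl, another small protein of the membrane part, was among the 3 highest genes in dendritic-like cells (163 and 292 CPM, 0.84). The F1 subunit epsilon, Atp5e, is also very small, and gave 0.20 to 0.72 outside neutrophil-like cells and -0.37 in them. Atp5h, in the peripheral stalk, gave -0.22 to -0.37 and -1.69.

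Some subunits of complex IV have isoforms used by particular tissues. UMIs at the 3′ end count transcripts once whatever their length, so their shares can be compared within a pair. Cox4i2, the isoform of Cox4 known from lung and from oxygen-sensing cells, was the single gene of the 117 whose level in 1 class was at least 4 times that in every other class, among classes of at least 50 cells in the library. It stood at 85.5 CPM in pericyte-like cells of sgVC (63 UMIs) and 245 in those of sgCPT1A (314 UMIs), at 6.32 and 2.50 in fibroblast-like and 9.53 and 2.33 in monocyte/macrophage-like cells, and it had 0 UMIs in T-like and dendritic-like cells, which allows at most 0.157% and 0.624% of its pair in sgCPT1A. Of the UMIs of Cox4i1 and Cox4i2 together it took 10.1% (7.83 to 12.7%) in pericyte-like cells of sgVC and 24.5% (22.2 to 26.9%) in those of sgCPT1A. The class was mixed: 19 of its 51 cells in sgVC and 11 of 73 in sgCPT1A held more endothelial than pericyte marker UMIs, and these held 1 and 0 Cox4i2 UMIs. In the other 32 and 62 cells Cox4i2 was at 133 and 263 CPM. Fibroblast markers summed to 3072 CPM in the class in sgVC and 12540 in sgCPT1A, and their part was not tested.

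Ndufa4l2, the hypoxia-induced relative of Ndufa4, was found in stroma. It was at 251 CPM in fibroblast-like cells of sgVC and 250 in those of sgCPT1A, and at 452 and 527 in pericyte-like cells. In both libraries it stayed at or below 2.10 CPM in T-like, dendritic-like, monocyte/macrophage-like and neutrophil-like cells. Of the UMIs of the pair it took 35.0% and 45.5% in fibroblast-like cells and 45.0% and 72.5% in pericyte-like cells. In fibroblast-like cells it had nearly the same CPM in both libraries, and its higher share there goes with the lower Ndufa4. Among the pericyte-like cells with more pericyte than endothelial marker UMIs it was at 708 and 563 CPM, so its direction in this class turned with the cells kept.

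Cox6a2, the isoform known from heart and skeletal muscle, dominated its pair in plasmacytoid dendritic-like cells. It took 58 of 65 UMIs in the 11 such cells of sgVC (89.2%, 79.1 to 95.6%) and 91 of 102 in the 9 of sgCPT1A (89.2%, 81.5 to 94.5%), with 1028 and 977 CPM. At least 1 UMI was seen in 8 of the 11 cells and 9 of the 9. In T-like cells, which give the background for free RNA, there were 0 UMIs beside 395 of Cox6a1 in sgVC and 0 beside 433 in sgCPT1A, which allows at most 0.930% and 0.848%. The median depth of T-like cells was 2873 and 4916 UMIs. The low cell numbers leave its level uncertain. Cox6b2, known from testis, held 3.37% of its pair in pericyte-like cells of sgVC and 6.12% in those of sgCPT1A. Cox7a1, the muscle isoform of Cox7a, held at most 2.64% of its pair in the 6 classes, though it was among the 3 highest ratios in monocyte/macrophage-like cells (5.90 and 11.2 CPM, 0.92). Cox7b2, Cox8b and Cox8c had 0 UMIs in all named classes.

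**Figure D4:**
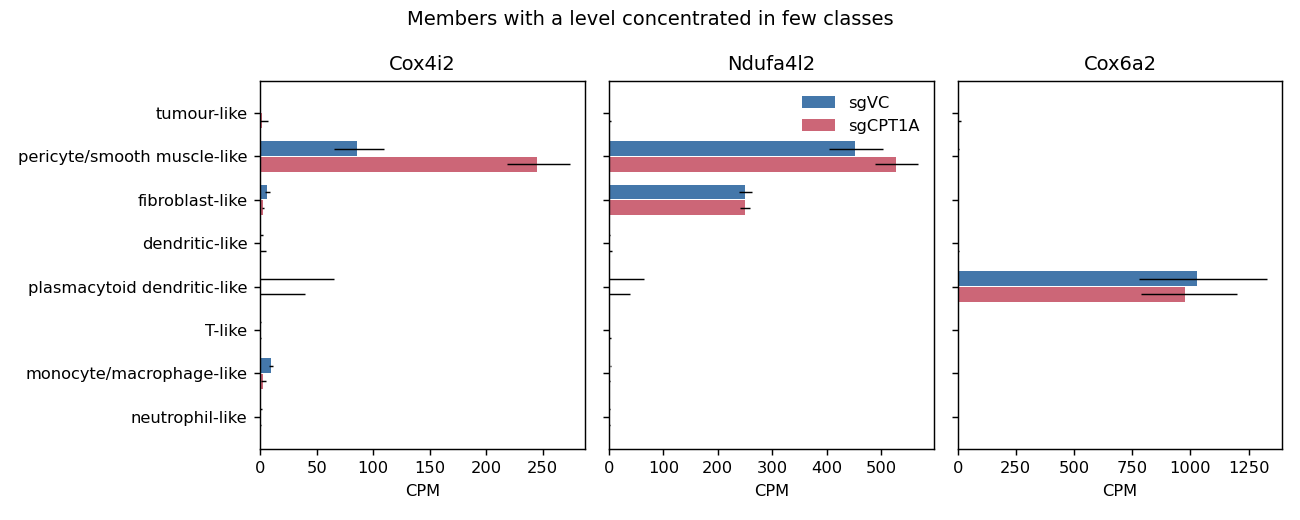
Level of Cox4i2, Ndufa4l2 and Cox6a2 in CPM by cell class and library, as bars from 0 with exact Poisson intervals for counting error. Cox4i2 stands out in pericyte-like cells (85.5 and 245 CPM), Ndufa4l2 in pericyte-like and fibroblast-like cells, and Cox6a2 in plasmacytoid dendritic-like cells (1028 and 977 CPM).

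Atp5g1, Atp5g2 and Atp5g3 encode the same mature c subunit of the proton ring with different import signals. Atp5g3 held the largest share of the 3 in sgVC, 66.5% in T-like, 60.4% in dendritic-like, 54.4% in fibroblast-like, 56.4% in monocyte/macrophage-like, 66.2% in pericyte-like and 65.7% in neutrophil-like cells. In sgCPT1A the share was 59.2%, 48.3%, 48.6%, 53.5%, 60.6% and 54.6%, lower in each class, with intervals that overlapped in monocyte/macrophage-like, pericyte-like and neutrophil-like cells. Atp5g1 and Atp5g2 share most of their windows with other genes.

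The neutrophil-like class was built of different clusters in the 2 libraries. Cluster 1 held 1421 of its 1797 cells in sgVC and 280 of 5124 in sgCPT1A, where clusters 3, 4, 5 and 7 held 1579, 1222, 975 and 1065. Within cluster 1 the nuclear genes were at 3889 CPM in sgVC and 3480 in sgCPT1A and the mitochondrial genes at 2076 and 1399. Averaged over clusters with at least 50 cells of each library, the ratios were -0.28 for nuclear and -0.84 for mitochondrial genes, in place of -0.57 and -1.19. With cells of 1000 to 2000 UMIs alone, 1154 in sgVC and 958 in sgCPT1A, nuclear genes were at 3695 and 2465 CPM and mitochondrial genes at 1856 and 777. When cells were assigned by their own marker counts in place of clusters, the ratios were -1.97 and -1.99. That changed the cells of the class and shifted genes of all kinds. With it 12168 genes were measured in place of 9209, and 58.8% of them were at least 1.5-fold lower in place of 36%. The part of this shift in the 2 ratios was not tested. Tumour genes, taken as a trace of free RNA, summed to 102 CPM in neutrophil-like cells of sgVC and 17.4 in those of sgCPT1A. Neutrophil markers in T-like cells summed to 322 and 2596 CPM, and in monocyte/macrophage-like cells to 1038 and 4229. Neutrophils hold little respiratory chain RNA, and the part of such admixture in the ratios of the other classes was not tested.

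The nuclear ratios varied with transcript length. Across the genes of the chain with at least 20 UMIs and an annotated transcript, Spearman's rho between transcript length and the log2 ratio was -0.33 in T-like (89 genes), -0.47 in dendritic-like (86), -0.48 in fibroblast-like (93), -0.61 in monocyte/macrophage-like (92), -0.32 in pericyte-like (91) and -0.23 in neutrophil-like cells (83). Over all genes it was positive, 0.20 to 0.26. Genes are not independent replicates and all share the same 2 libraries. In monocyte/macrophage-like cells the median ratio was 0.31 for members up to 594 bases, -0.41 for those up to 1056 and -0.57 for longer ones. All genes of these lengths had medians of 0.03, -0.45 and -0.10. In pericyte-like cells the 3 medians were 0.36, -0.14 and -0.21, against 0.20, -0.29 and 0.07 for all genes. The part of length in the ratios of single genes was not tested.

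**Figure D5:**
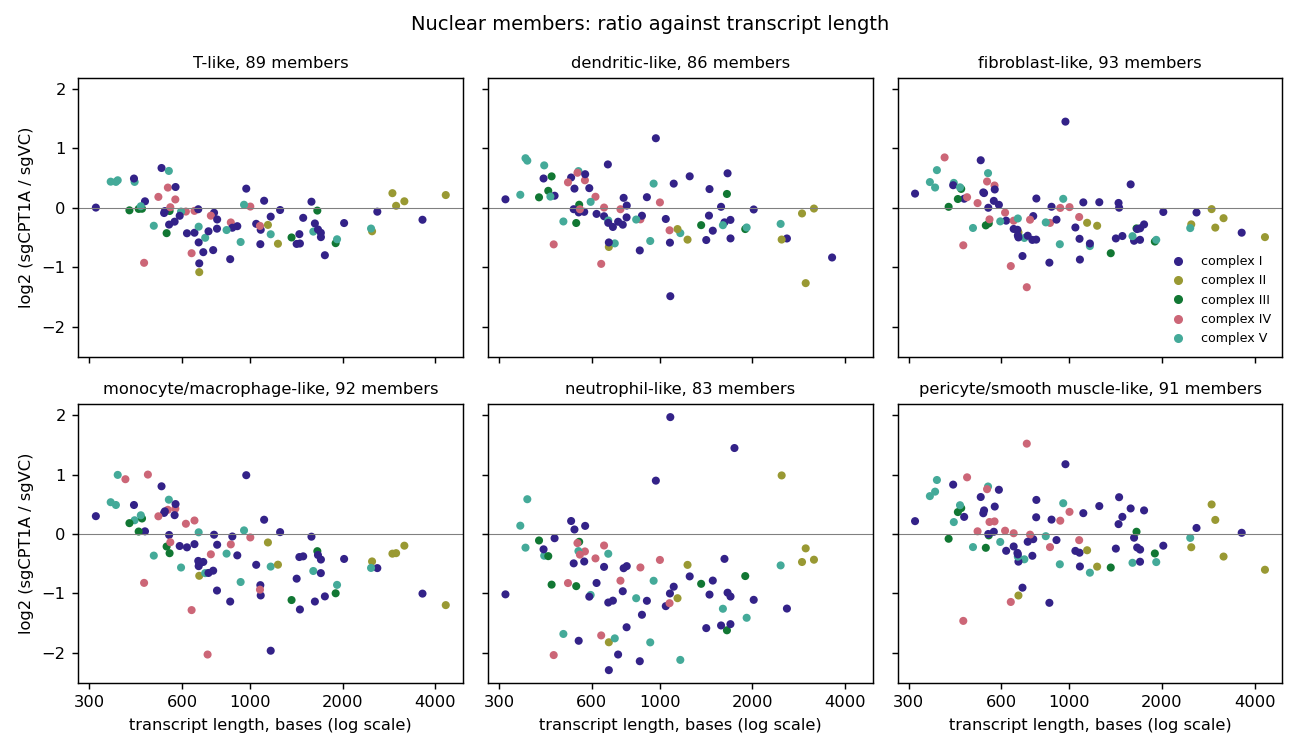
Log2 ratio of sgCPT1A over sgVC against transcript length in bases (log axis) for nuclear genes of the chain in the 6 compared classes, coloured by complex. By their medians, genes of up to 594 bases lie higher than the longer ones in each class, with rho from -0.23 in neutrophil-like to -0.61 in monocyte/macrophage-like cells.

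Many nuclear respiratory chain genes are known targets of nuclear respiratory factor 1 (NRF1), ETS factors such as GABP, and YY1. The promoter windows (250 bases before to 50 after the start, RefSeq, GRCm38.p6) were at hand in full length for 81 of the 104. The NRF1 motif, whose letters are in capitals in the sequences below and read the same on both strands, occurred in 7 of the 81, or 8.64% (3.55 to 17.0%), against 0.977% of 27025 windows of all genes. The ETS letters CCGGAAG occurred in 21 (25.9% against 9.12%), and the YY1 letters AAGATGGCG in 7 (8.64% against 1.49%), each searched on both strands. For the SP1 letters GGGGCGGGG (14.8% against 11.6%) and the TATA box TATAAA (11.1% against 14.2%) the members' interval held the share of all windows. None of these strings contains another. The 7 genes with the NRF1 letters were Ndufaf5, Ndufaf4, Atp5k, Cox6a1, Uqcrc1, Atp5g2 and Ndufa11. Of these, 3 subunit promoters are shown to place the site, in capitals: Atp5k at chr5:108434415-108434474 (minus strand), Cox6a1 at chr5:115349086-115349145 (minus) and Ndufa11 at chr17:56717677-56717736 (plus).
Atp5k: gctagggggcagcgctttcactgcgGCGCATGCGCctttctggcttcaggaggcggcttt
Cox6a1: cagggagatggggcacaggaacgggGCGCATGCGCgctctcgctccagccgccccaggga
Ndufa11: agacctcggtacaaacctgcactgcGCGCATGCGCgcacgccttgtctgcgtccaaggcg

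The 7 genes did not move as a block. In monocyte/macrophage-like cells Atp5k was at 0.99 and Cox6a1 at 0.42 (107 and 143 CPM), while Uqcrc1 was at -0.29, Ndufaf4 at -1.01 and Ndufaf5 at -1.97. A match is a description of letters and no measure of binding.

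Other mitochondrial genes give the setting. Of the mitochondrial ribosome genes, whose products translate the 13 mitochondrial messages, 77 were measured in T-like cells with 0 at least 1.5-fold higher and 25 lower (median -0.46), where 14% of all genes were lower. In dendritic-like cells 2 of 75 were higher and 24 lower (-0.42, with 18.5% of all genes lower), in fibroblast-like 0 of 77 and 24 (-0.48, with 13.5%), in monocyte/macrophage-like 1 of 77 and 47 (-0.74, with 25.3%), in pericyte-like 2 of 77 and 28 (-0.38, with 18.6%), and in neutrophil-like 2 of 60 and 48 (-0.97, with 36%). Each of these medians lay below that of the nuclear respiratory chain genes and of all genes in the same class. All genes at least 1.5-fold higher made up 13.5% in T-like, 15.9% in dendritic-like, 16% in fibroblast-like and 15.1% in monocyte/macrophage-like cells. The share was 22.9% in pericyte-like and 17.4% in neutrophil-like cells. Mrpl12 was lower in all 6 classes, with 111 and 69.9 CPM in T-like cells. TCA cycle genes had medians of -0.39 in T-like, -0.08 in dendritic-like, -0.17 in fibroblast-like, -0.55 in monocyte/macrophage-like, -0.09 in pericyte-like and -0.88 in neutrophil-like cells. None was 1.5-fold higher in any class. Those 1.5-fold lower numbered 2 of 17, 1 of 17, 4 of 18, 8 of 17, 0 of 17 and 9 of 13 in the same order. All genes lower made up 14%, 18.5%, 13.5%, 25.3%, 18.6% and 36% in these classes. Mdh2, the malate dehydrogenase of the cycle, was at 317 and 206 CPM in T-like cells.

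Assembly factors outside the symbol rule numbered 34 measured in monocyte/macrophage-like cells (4 higher, 11 lower, median -0.47, with 25.3% of all genes lower) and 20 in neutrophil-like cells (2 higher, 9 lower, -0.54, with 36%). In T-like cells 3 of 32 were higher and 5 lower (-0.24, with 14%), in dendritic-like 3 of 26 and 6 (-0.15, with 18.5%), in fibroblast-like 2 of 34 and 4 (-0.07, with 13.5%), and in pericyte-like 7 of 28 and 4 (-0.01, with 18.6%). All genes higher made up 15.1%, 17.4%, 13.5%, 15.9%, 16% and 22.9% in these 6 classes, in the order given here for the assembly factors. Among them Cox17, the copper chaperone of complex IV, was at 121 and 286 CPM in monocyte/macrophage-like and 258 and 514 in neutrophil-like cells, and above 0 in all 6 classes (0.31 to 1.25). Cycs, cytochrome c itself, was below 0 in all 6, from -0.22 to -0.96. Hypoxia-linked mitochondrial genes had medians of -0.11 in T-like, -0.45 in dendritic-like, -0.59 in fibroblast-like, -0.29 in monocyte/macrophage-like, -0.32 in pericyte-like and -1.41 in neutrophil-like cells. Fam162a, a hypoxia-induced mitochondrial protein, was at 1168 CPM in neutrophil-like cells of sgVC and 223 in those of sgCPT1A (-2.39). Genes for transcription and replication of mitochondrial DNA had medians between -0.53 and -0.04. Their DNA-binding protein Ssbp1 was lower in all 6 classes, with 71.5 and 44.7 CPM in T-like cells. Regulators of mitochondrial biogenesis had medians between -0.17 and 0.20. Myc, a transcription factor of cell growth, was at 10.4 and 1.97 CPM in neutrophil-like, 60.4 and 21.4 in monocyte/macrophage-like and 160 and 162 in pericyte-like cells.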

How the data were processed

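UMI counts per gene and cell were deposited by the authors as 10x matrices, written by Cell Ranger 7.1.0 per the file headers; the submitters' processing notes name Seurat 4.1.0 and GRCm38. The deposited counts are raw and not normalized. Cells with at least 200 genes and at most 20% mt- UMIs were kept. Scrublet removed 291 of 9610 cells in sgVC (3.03%); it marked 1 of 6743 in sgCPT1A, so it had not worked there and doublets remain. Both libraries were clustered together with scanpy 1.11.5 (2000 variable genes, 30 components, 15 neighbours, Leiden resolution 1), without respiratory chain genes, other mt- genes, Rn18s genes, Malat1 and Xist. Clusters were named from marker lists, with naming settings chosen with the data in hand, so class differences may come from rebuilt names. UMIs were summed per class and library and scaled to 1000000 UMIs of the class (CPM). Intervals are exact Poisson, conditional binomial (ratios) and Clopper-Pearson (shares) at 95%. Only the ratio intervals were run on simulated data, drawn as Poisson counts without variation between cells or libraries. These intervals assume such counts, so the run checks the code and not the spread of real data. All intervals cover counting error only, and fewer cells of a kind cannot be told apart from less RNA per cell in summed counts. A gene counted as measured with at least 20 UMIs over both libraries. Transcripts came from GENCODE M21 and promoters from RefSeq.

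The genes named in the text are every mt- gene, the 2 highest nuclear genes per complex, the 3 highest and 3 lowest ratios per class with at least 50 UMIs, isoform pairs, genes at least 4 times higher in 1 class, and up to 2 per other list, with a few examples of role besides. The members, lists and rules were chosen with earlier results of these data known.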

Additional observations from a re-analysis of the deposited data

Results flagged for a closer look

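The summed mitochondrial genes differed in sign between classes under the same contrast. Their log2 ratio of sgCPT1A over sgVC was 0.46 in T-like, 0.54 in dendritic-like, 0.77 in fibroblast-like, 0.22 in monocyte/macrophage-like and 0.73 in pericyte-like cells, and -1.19 in neutrophil-like cells. With 1 library per arm this difference between classes was not tested.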

How the results depend on the processing

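Of 310 values recomputed under alternatives, 179 kept their direction and stayed within counting error or within 1.5 times a count, 130 moved further, and 1 turned: the nuclear ratio in pericyte-like cells became 0.011 with free RNA subtracted. With 1 library per arm no replicate could be left out, and the cause of these shifts was not tested. Classes are given by a short name in brackets, after a count also with the share of all genes that passed under the same setting. With a cap of 10% mt- UMIs, nuclear ratios were -0.13 (T), -0.13 (fibroblast) and -0.15 (monocyte), and mitochondrial ratios were 0.42 (dendritic), 0.69 (fibroblast) and 0.023 (monocyte). Nuclear genes lower numbered 8 (T, 13.8%). Without the mt- cap, the nuclear ratio was -0.30 (monocyte), and mitochondrial ratios were 0.64 (dendritic), 0.87 (fibroblast) and 0.95 (monocyte). Classes at the same place in the order numbered 7 (nuclear, sgVC), 5 (nuclear, sgCPT1A), 6 (mitochondrial, sgVC) and 0 (mitochondrial, sgCPT1A). An endothelial-like class entered each of these orders, without the pericyte-like class in sgVC and beside it in sgCPT1A, so later places shifted. For mitochondrial genes in sgCPT1A it came first, with pericyte-like cells next and neutrophil-like cells still last. Monocyte/macrophage-like cells moved before fibroblast-like and T-like cells there. With doublet calls kept, nuclear ratios were -0.26 (T), -0.077 (dendritic), -0.26 (fibroblast) and -0.26 (monocyte), and mitochondrial ratios were 0.25 (T), 0.62 (fibroblast) and 0.073 (monocyte). Nuclear genes higher numbered 4 (T, 18.9%) and 3 (fibroblast, 17.1%), and those lower numbered 30 (T, 30.3%), 16 (dendritic, 22.5%) and 24 (fibroblast, 18.4%). At Leiden resolution 0.5, the nuclear ratio was -0.061 (dendritic), and the mitochondrial ratio was 0.73 (dendritic). At resolution 2, nuclear ratios were -0.072 (dendritic) and -0.63 (neutrophil), and mitochondrial ratios were 0.72 (dendritic) and -1.33 (neutrophil). Nuclear genes higher numbered 5 (dendritic, 16.3%), and those lower numbered 14 (dendritic, 19.9%). With each cell assigned by its own markers, nuclear ratios were -0.30 (fibroblast), -0.17 (monocyte) and -1.97 (neutrophil), and mitochondrial ratios were 0.33 (T), 0.46 (fibroblast), 0.29 (monocyte) and -1.99 (neutrophil). Nuclear genes lower numbered 24 (fibroblast, 21.2%) and 81 (neutrophil, 58.8%). With cells of 1000 to 5000 UMIs alone, an alternative added after the data were seen, nuclear ratios were -0.51 (T), -0.59 (fibroblast), -0.59 (monocyte) and -0.53 (neutrophil), and mitochondrial ratios were 0.61 (T), 1.06 (fibroblast), 0.75 (monocyte) and -1.26 (neutrophil). Nuclear genes higher numbered 0 (T, 16.1%), 0 (fibroblast, 13%) and 2 (monocyte, 15.4%), and those lower numbered 40 (T, 23.1%), 31 (fibroblast, 34.9%) and 45 (monocyte, 34.2%). With mt- UMIs left out of the total, nuclear ratios were -0.15 (T), -0.12 (fibroblast), -0.17 (monocyte) and -0.015 (pericyte). Classes at the same place in the order numbered 6 (nuclear, sgVC). Relative to the median gene, nuclear ratios were -0.14 (T), -0.13 (fibroblast), -0.080 (monocyte), -0.27 (neutrophil) and -0.10 (pericyte), and mitochondrial ratios were 0.50 (T), 0.33 (monocyte), -0.90 (neutrophil) and 0.68 (pericyte). Nuclear genes higher numbered 12 (monocyte, 19.2%), and those lower numbered 8 (T, 12.7%). With every cell weighted alike, nuclear ratios were -0.34 (T), -0.18 (fibroblast), -0.32 (monocyte) and -0.084 (pericyte), and mitochondrial ratios were 0.40 (T), 0.44 (dendritic), 0.83 (fibroblast), 0.39 (monocyte) and 0.54 (pericyte). Nuclear genes higher numbered 1 (T, 14.4%) and 4 (monocyte, 15.9%), and those lower numbered 23 (T, 19.8%) and 11 (pericyte, 23.2%), and classes at the same place in the order numbered 6 (nuclear, sgVC), 4 (nuclear, sgCPT1A), 4 (mitochondrial, sgVC) and 4 (mitochondrial, sgCPT1A). Averaged within clusters, nuclear ratios were -0.12 (fibroblast) and -0.28 (neutrophil), and mitochondrial ratios were 0.41 (T), 0.79 (fibroblast) and -0.84 (neutrophil). Nuclear genes higher numbered 2 (neutrophil, 12.4%). With an estimate of free RNA subtracted, nuclear ratios were -0.089 (T), -0.087 (fibroblast), -0.17 (monocyte), -0.71 (neutrophil) and 0.011 (pericyte), and mitochondrial ratios were 0.49 (T), 0.85 (fibroblast), -1.75 (neutrophil) and 0.81 (pericyte). Nuclear genes lower numbered 5 (fibroblast, 13.4%). At 2-fold in place of 1.5-fold, nuclear genes higher numbered 0 (T, 5.43%), 1 (dendritic, 5.84%), 1 (fibroblast, 8.05%), 0 (monocyte, 6.93%), 2 (neutrophil, 10.7%) and 2 (pericyte, 10.9%), and those lower numbered 1 (T, 4.07%), 2 (dendritic, 7.8%), 1 (fibroblast, 4.96%), 12 (monocyte, 12.6%) and 4 (pericyte, 8.43%). With the 6 mt- genes free of near copies, also added later, mitochondrial ratios were 0.43 (T), 0.43 (dendritic), 0.73 (fibroblast), 0.14 (monocyte), -1.26 (neutrophil) and 0.65 (pericyte). With the 6 mt- genes that have no shared window among their last 300, also added later, mitochondrial ratios were 0.30 (T), 0.34 (dendritic), 0.64 (fibroblast), 0.056 (monocyte), -1.26 (neutrophil) and 0.56 (pericyte). With genes of at least 1 UMI, nuclear genes higher numbered 11 (neutrophil, 37.4%). Adding the UMIs of near copies shifted no value beyond counting error. Not run, for too few cells in a library, were dendritic-like cells by own markers, in the 1000 to 5000 range and within clusters, and pericyte-like cells under both other mt- caps, by own markers and in that range. Free RNA was not subtracted in dendritic-like cells, where tumour genes gave an estimate of 60.5% in sgCPT1A and 10.5% in sgVC. In T-like cells the estimate was 27.9% in sgCPT1A and 4.82% in sgVC, with tumour genes at 69.0 and 156 CPM. These estimates divide by the tumour gene level of the library, 247 CPM in sgCPT1A and 3235 in sgVC, so they are rough in sgCPT1A. No paired analysis was possible because each arm has 1 library. Depth limits the rare genes (mt-Nd6, mt-Nd4l, Cox7a1) and the classes of few cells most.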
